A study of Drosophila melanogaster with 9 samples.

Results

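The Jonah 99C and 99F genes are 5 serine protease genes of Drosophila melanogaster, Jon99Ci, Jon99Cii, Jon99Ciii, Jon99Fi and Jon99Fii. They were taken by gene name from tables of 10245 genes, and all 5 were found in every table. The transcripts of whole guts were sequenced from adult females of the strain Oregon R, kept on 10% glucose, on agar or on standard medium. Each diet had 3 biological repeats, which makes 9 libraries. All flies shared the strain, the sex and the tissue, and the labels set the groups apart by diet alone; neither the time on each diet nor the age of the flies is given in the sources used here. The series title names sugar sensing by activin signalling and the expression of digestive enzymes as the question behind the diets. Levels are in RPKM, reads per kilobase of transcript scaled to the total of the library, which is a level per length and so can be set side by side between genes.

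Jonah proteases are secreted endopeptidases with a chymotrypsin-like fold. They are made mainly by the absorptive enterocytes of the midgut, released into the gut lumen and act there on dietary protein beside the trypsins, which belong to the same family of serine proteases. The genes form small groups on several chromosome arms, and members of a group resemble each other closely. Proteases of this kind cut inside a protein chain, and exopeptidases and amino acid transporters act on the products.

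The 5 genes lie at 2 places on chromosome arm 3R of the BDGP6.54 assembly (Ensembl release 115), whose coordinates are given here because the build behind the deposited values is not given in the sources used here. At 99C, Jon99Ciii occupies 29922216 to 29923455 on the plus strand, Jon99Cii 29923754 to 29924615 on the minus strand and Jon99Ci 29925226 to 29926189 on the minus strand, with 298 and 610 bases between neighbours. At 99F, Jon99Fii occupies 30487016 to 30487928 on the minus strand and Jon99Fi 30488963 to 30489895 on the plus strand, so that this pair is transcribed away from the 1034 bases that separate it. The 2 places are 561 kb apart. Jon99Ci has 2 exons and an intron of 57 bases, and the other 4 genes have 1 exon each. The deposited values gave whole numbers of reads in all 9 libraries with transcript lengths of 907 bases for Jon99Ci, 862 for Jon99Cii, 933 for Jon99Fi and 913 for Jon99Fii. For Jon99Ciii this held with the transcript of 837 bases and in 0 libraries with that of 1240 bases.

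Library totals recovered from the values were 34899709 to 48389188 reads, and the number of reads behind a value of these genes ran from 10048 (Jon99Fi, agar replicate 3) to 304481 (Jon99Ciii, standard replicate 1). Libraries of a diet were not equally alike. In standard replicates 2 and 3, the 110 replication-dependent histone genes exceeded the median library by a median of 3.98 and 3.32 log2 units, while the other 7 libraries gave -1.01 to 0.59. Agar replicate 3 stood apart at 33.9 on principal component 2 (24.1% of the variance), with the rest at -26.0 to 7.62. The gut label was checked against markers of the midgut and its enterocytes: the 4 genes Myo31DF, nub, mex1 and GATAe were all detected, with summed levels of 207 to 227 RPKM on glucose, 193 to 228 on agar and 158 to 172 on standard medium. Muscle markers summed to 231 to 354, 235 to 348 and 258 to 364 RPKM on the same diets and fat body markers to 332 to 385, 259 to 371 and 283 to 398. Enteroendocrine markers summed to 111 to 137, 103 to 129 and 93.1 to 98.99 RPKM on the same diets, copper cell markers to 49.4 to 60.3, 54.9 to 69.1 and 45.0 to 59.8, progenitor markers to 5.99 to 6.22, 5.36 to 6.71 and 3.65 to 4.29, and Malpighian tubule markers to 2.88 to 3.95, 2.35 to 3.77 and 2.83 to 3.55. The haemocyte markers stayed at or under 0.346 RPKM summed, and the ovary markers summed to 0.0573 to 2.33 on glucose and to 0.0835 or less on the other diets. In whole guts, fewer cells that make a protease and less RNA per cell cannot be told apart.

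All 5 genes were among the more abundant transcripts of the gut. Jon99Ciii ranked 11 on glucose, 14 on agar and 9 on standard medium among the 10245 genes by mean level, and Jon99Cii ranked 14, 19 and 11 on the same diets. Jon99Fii ranked 27, 21 and 28 on the same diets, Jon99Fi 58, 113 and 40, and Jon99Ci 94, 35 and 52. Together the 5 genes took 0.683% to 0.907% of the library's reads on glucose, 0.437% to 0.957% on agar and 1.20% to 1.66% on standard medium. Their summed level was 9392, 10402 and 7807 RPKM in glucose replicates 1, 2 and 3, 10957, 7987 and 4928 in agar replicates 1, 2 and 3, and 19159, 13760.5 and 13922 in standard replicates 1, 2 and 3. Every standard library thus held more of these transcripts than any glucose or agar library, and agar replicate 3 held the least.

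**Figure D1:**
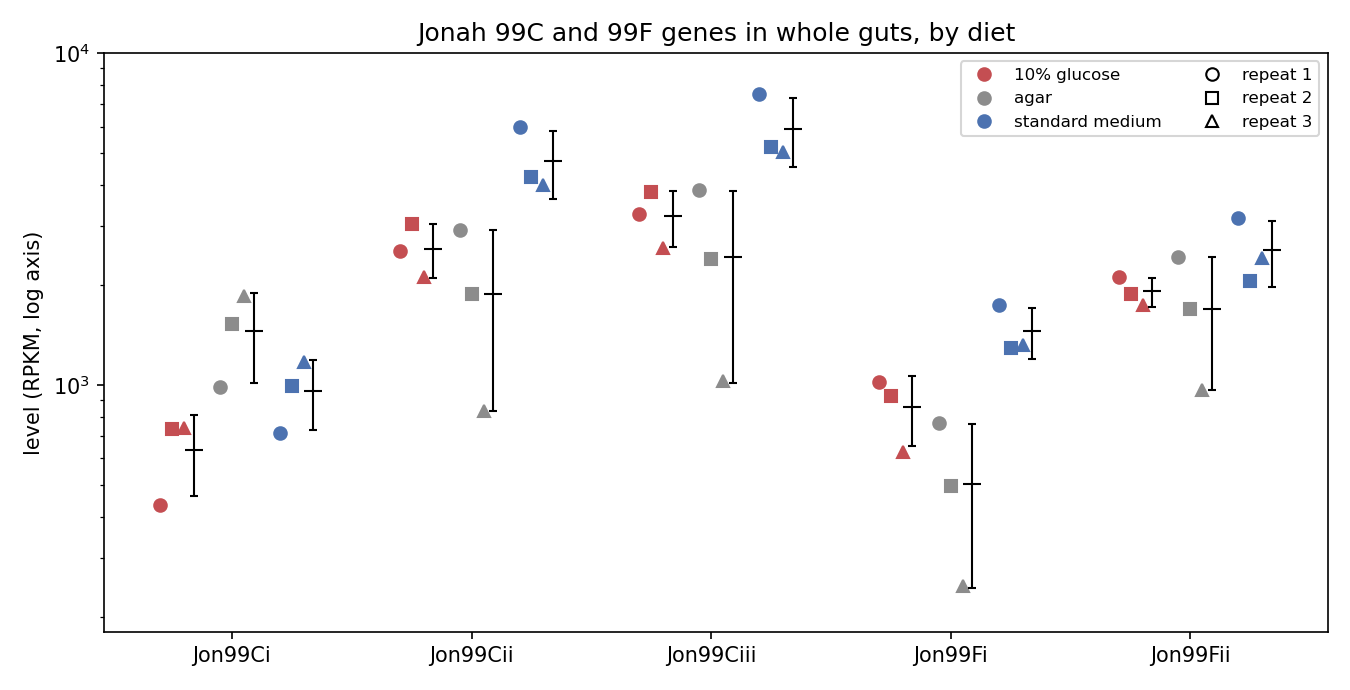
Level of each gene (RPKM, log axis) in each library, by diet (colour) and repeat (symbol), with bars for the mean and SD of 3 libraries. The 4 genes other than Jon99Ci have their highest means on standard medium and their lowest levels in agar replicate 3, and Jon99Ci lies highest in agar replicate 3, at 1857 RPKM.

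Jon99Ciii and Jon99Cii, the neighbours at 99C that are transcribed towards each other, were the most abundant of the 5. Jon99Ciii was at 3282, 3812 and 2584 RPKM in glucose replicates 1, 2 and 3, at 3858, 2402 and 1023 in agar replicates 1, 2 and 3, and at 7518, 5196 and 5045 in standard replicates 1, 2 and 3. All standard libraries lay above all others, and the glucose and agar libraries overlapped. Jon99Cii was at 2538, 3059.7 and 2112 RPKM on glucose, at 2925, 1873 and 834 on agar and at 6002, 4221 and 3988 on standard medium, in the same order of repeats. It showed the same arrangement of diets. Jon99Ciii exceeded Jon99Cii in 9 of 9 libraries, by 1.22 to 1.32 times, a ratio that spread over 0.11 log2 units while the level of either gene changed several-fold. The neighbours resemble each other in sequence, how reads that match both were counted is not given in the sources used here, and the ratio may hold shared reads.

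The divergent pair at 99F had levels that differed more from each other. Jon99Fii was at 2119, 1873 and 1743 RPKM in glucose replicates 1, 2 and 3, at 2424, 1691 and 966 in agar replicates 1, 2 and 3, and at 3185, 2056 and 2403 in standard replicates 1, 2 and 3. Standard medium had the highest mean, but the lowest standard library lay below the highest glucose and agar libraries. Jon99Fi was at 1019, 922 and 629 RPKM on glucose, at 766, 496 and 248 on agar and at 1740.1, 1295 and 1317 on standard medium. Here all standard libraries lay above all others. Jon99Fii exceeded Jon99Fi in 9 of 9 libraries, by 1.59 to 3.90 times. The log2 ratio of Jon99Fi to Jon99Fii was -1.47 to -1.02 on glucose, -1.96 to -1.66 on agar and -0.87 to -0.67 on standard medium, so that the 3 diets did not overlap in it. Ratios of all pairs of the 5 genes were looked at, and in every other pair some diets overlapped. This ratio is given as a description, with no test. How reads that match both genes were counted is not given in the sources used here.

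Jon99Ci, the gene with an intron, did not follow the other 4 on agar or from repeat to repeat. Like theirs, its mean was lower on glucose than on standard medium. Jon99Ci was at 434, 735 and 739.5 RPKM in glucose replicates 1, 2 and 3, at 985, 1524 and 1857 in agar replicates 1, 2 and 3, and at 714, 993 and 1169 in standard replicates 1, 2 and 3. All agar libraries lay above all glucose libraries, and the standard libraries overlapped both. In agar replicate 3, where Jon99Cii, Jon99Ciii, Jon99Fi and Jon99Fii had their lowest levels of the 9 libraries, Jon99Ci had its highest. It exceeded Jon99Cii, Jon99Ciii and Jon99Fii in that library alone and Jon99Fi in 4 of 9 libraries. Its share of the summed level of the 5 genes was 4.62% to 9.47% on glucose, 8.99% to 37.7% on agar and 3.73% to 8.40% on standard medium. The log2 ratio of Jon99Ci to Jon99Cii, its neighbour on the same strand, ran from -3.07 in standard replicate 1 to 1.16 in agar replicate 3.

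**Figure D2:**
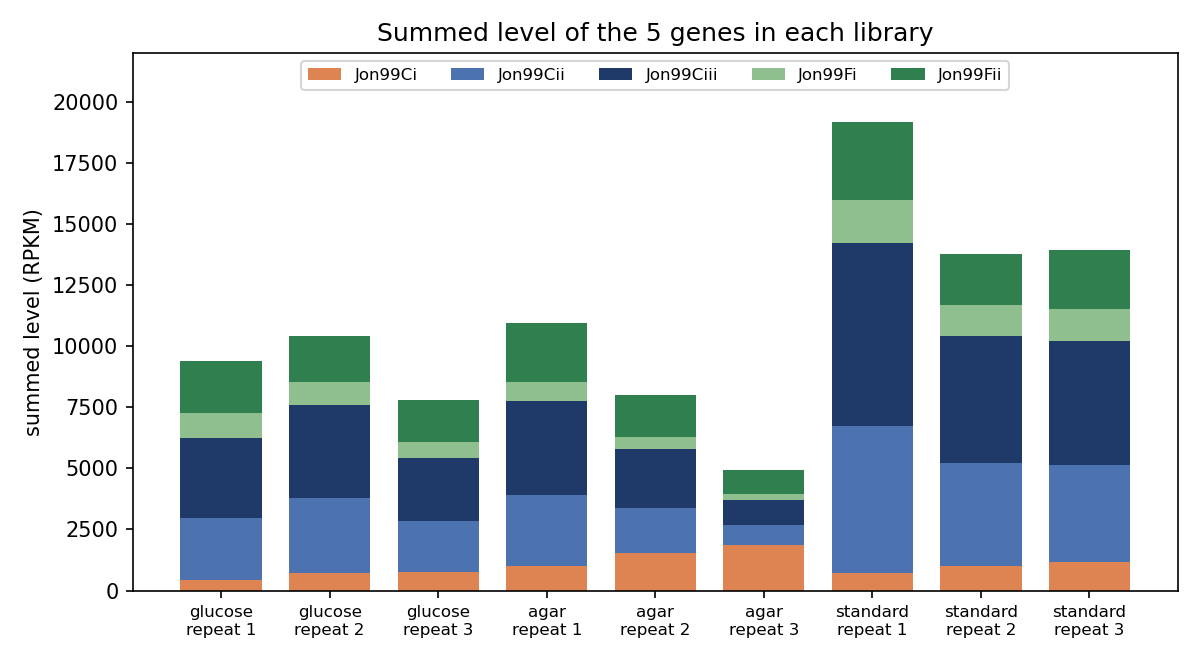
Summed level of the 5 genes (RPKM) in each library, stacked by gene, for glucose, agar and standard medium. The standard libraries reach 13760.5 to 19159 RPKM, and Jon99Ci makes up 37.7% of the 4928 RPKM in agar replicate 3.

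**Figure D3:**
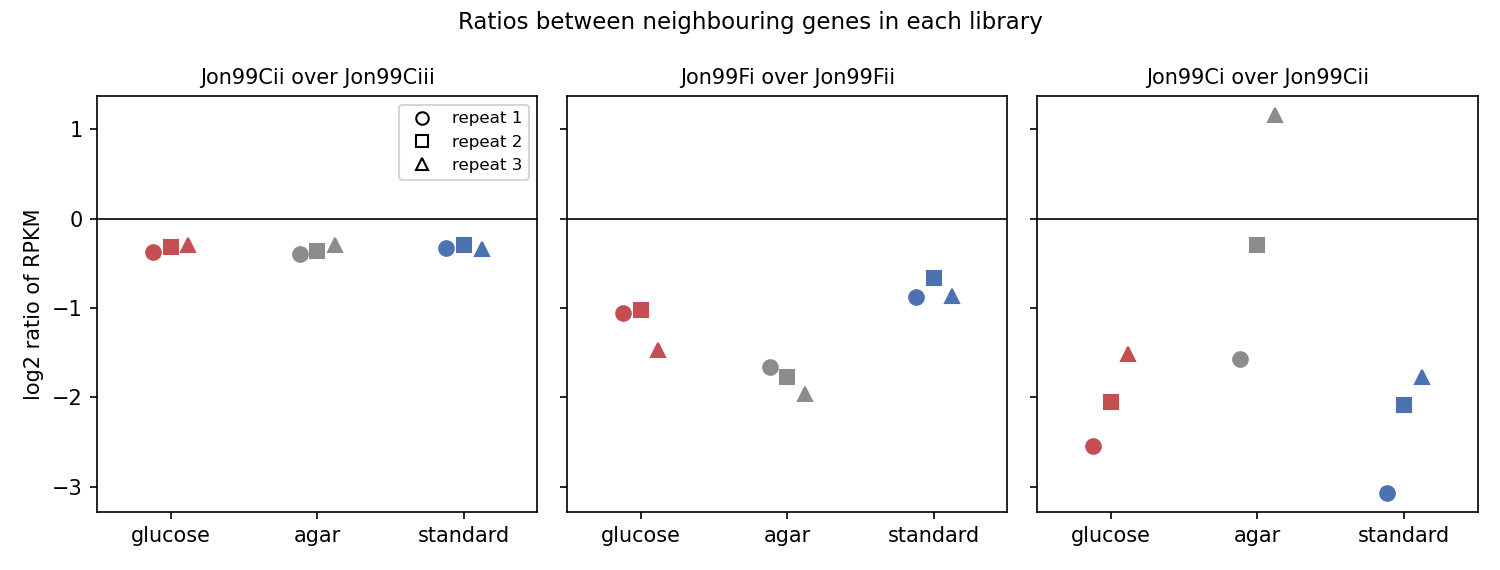
Log2 ratio of RPKM between neighbouring genes in each library, by diet and repeat. Jon99Cii over Jon99Ciii stays within 0.11 log2 units over all 9 libraries, Jon99Fi over Jon99Fii separates the diets, and Jon99Ci over Jon99Cii spreads over 4.23 log2 units.

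The order of levels within a diet follows from these values. On glucose the means were 3226 ± 616 RPKM for Jon99Ciii, 2570.0 ± 475 for Jon99Cii, 1912 ± 191 for Jon99Fii, 857 ± 203 for Jon99Fi and 636 ± 175 for Jon99Ci (SD, n = 3). Jon99Fii and Jon99Fi were separated by more than the spread between libraries there, and the ranges of the other neighbours in this order overlapped. On agar the means were 2428 ± 1417 for Jon99Ciii, 1877 ± 1046 for Jon99Cii, 1694 ± 729 for Jon99Fii, 1455 ± 440.3 for Jon99Ci and 503 ± 259 for Jon99Fi (SD, n = 3). Jon99Ci and Jon99Fi alone did not overlap as neighbours in the agar order. On standard medium the means were 5919.8 ± 1386 for Jon99Ciii, 4737 ± 1102 for Jon99Cii, 2548 ± 578 for Jon99Fii, 1450.5 ± 251 for Jon99Fi and 959 ± 229 for Jon99Ci (SD, n = 3). In that order Jon99Ciii overlapped Jon99Cii, and each lower neighbour was separate. These ranges run across libraries. Within the same library Jon99Ciii exceeded Jon99Cii in 9 of 9 libraries, Jon99Cii exceeded Jon99Fii in 8 of 9 and Jon99Fi exceeded Jon99Ci in 5 of 9. As a description over the 9 libraries, which share the scaling to the library total and the repeat numbers, Pearson's r among the 4 genes other than Jon99Ci was 0.92 to 0.999. Between Jon99Ci and each of them it was -0.61 to -0.50. With each diet's mean removed, the values were 0.94 to 0.999 and -0.80 to -0.69.

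Agar, the gelling agent of fly media, was compared with standard medium. Jon99Fi fell to 503 ± 259 RPKM on agar, against 1450.5 ± 251 on standard medium, a log2 difference of -1.66 (95% interval -2.52 to -0.79, limma adjusted p = 0.0127). Jon99Cii fell to 1877 ± 1046 RPKM on agar, against 4737 ± 1102 on standard medium (-1.49, interval -2.42 to -0.55, limma adjusted p = 0.0228), and Jon99Ciii to 2428 ± 1417, against 5919.8 ± 1386 (-1.46, interval -2.44 to -0.48, limma adjusted p = 0.0286). Jon99Fii was at 1694 ± 729 RPKM on agar and 2548 ± 578 on standard medium (-0.66, interval -1.38 to 0.06, limma adjusted p = 0.120), and Jon99Ci at 1455 ± 440.3 and 959 ± 229 (0.58, interval -0.12 to 1.29, limma adjusted p = 0.156). Of the 5 genes 3 were called lower and 0 higher, against 2.23% of the 8036 genes tested that were called lower and 37.7% called higher. The same 3 genes had all agar libraries below all standard libraries, as did 2.71% of all genes tested. Jon99Cii and Jon99Ciii, which are among these 3, may share reads and so may not be separate results. The median difference of the 5 genes was -1.46, beside 0.28 over all genes. Of the 5 genes 4 had a difference below 0, as did 15.2% of all genes tested. The summed midgut markers were at 193 to 228 RPKM on agar and 158 to 172 on standard medium. The median difference over all genes, 0.28, was also above 0. The part of these markers in the result was not tested.

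The calls differed in how they held. With the repeat number as a block, all 5 genes passed. Jon99Fii was then lower (limma adjusted p = 0.0445) and Jon99Ci higher (limma adjusted p = 0.00950). With the block 4.78% of all genes were lower and 51% higher. The median over all genes, 0.28, was 0.00 after median-ratio scaling, when 145 genes were higher and 230 lower. The difference of Jon99Ci was then 0.22 (adjusted p = 0.253 with the block). The differences of Jon99Fi and Jon99Cii were then -2.02 and -1.85 (adjusted p = 0.0222 and 0.0418), and Jon99Ciii was at -1.82 and missed the threshold (adjusted p = 0.0504). After quantile normalization Jon99Fi alone passed (-1.50, adjusted p = 0.0456), and Jon99Cii was at -0.57 and Jon99Ciii at -0.91. Leaving out any of the 9 libraries alone left Jon99Fi called. Jon99Cii lost its call without agar replicate 2 (adjusted p = 0.0549), standard replicate 1 (0.0602) or standard replicate 3 (0.05003), and Jon99Ciii without agar replicate 2 (0.0630) or any standard library (0.0554 to 0.0737), while Jon99Fii passed without agar replicate 1 (-0.97, adjusted p = 0.0276). Without agar replicate 3, which stood apart, the calls of Jon99Fi, Jon99Cii and Jon99Ciii held with smaller differences of -1.22, -0.99 and -0.93, and Jon99Fii and Jon99Ci were at -0.31 and 0.38. Without standard replicates 2 and 3, the libraries with more histone RNA, the differences of Jon99Fi, Jon99Cii and Jon99Ciii were -1.93, -1.85 and -1.83 and 0 of the 5 genes were called by limma, with 3 at an unadjusted p under 0.05. The lone standard library was there assumed to vary like the other groups. Over all alternatives the adjusted p ran from 0.00379 to 0.112 for Jon99Fi, 0.00763 to 0.427 for Jon99Cii, 0.00857 to 0.136 for Jon99Ciii, 0.0276 to 0.901 for Jon99Fii and 0.00950 to 0.721 for Jon99Ci.

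**Figure D4:**
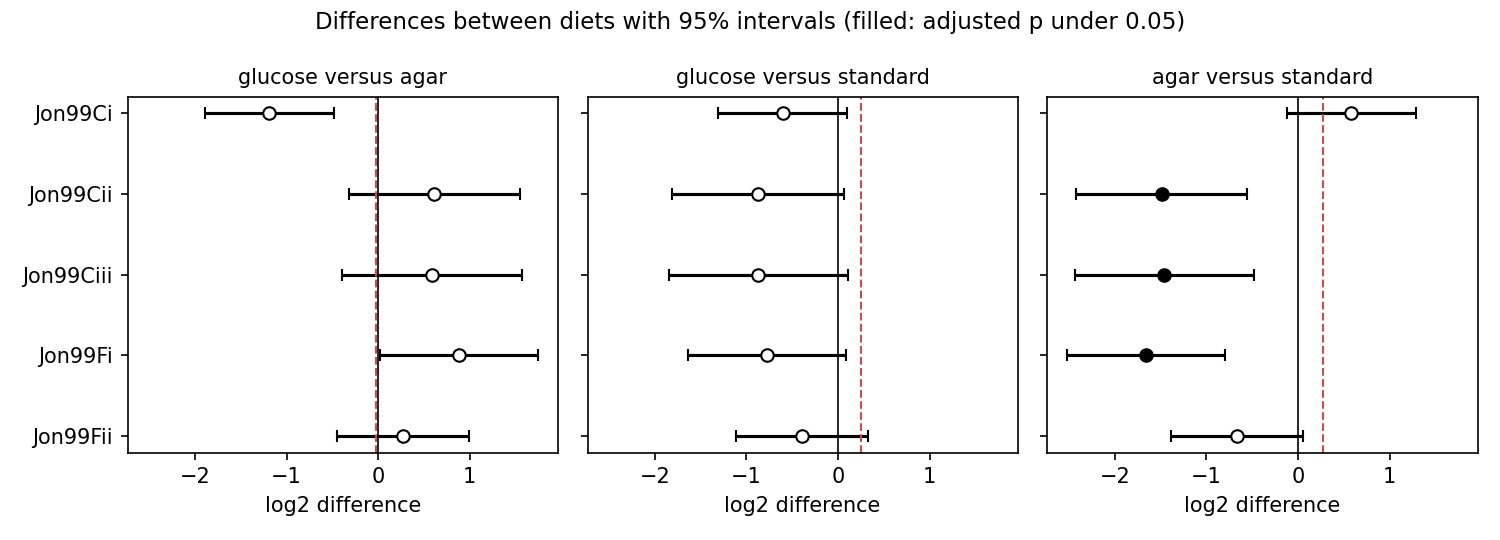
Log2 difference of each gene in the 3 comparisons (first-named diet minus second), with 95% intervals from limma; filled points passed at an adjusted p under 0.05, and the dashed line is the median of all genes tested. Jon99Fi, Jon99Cii and Jon99Ciii passed on agar versus standard medium (-1.66, -1.49 and -1.46), and Jon99Ci lies on the other side of 0 from the other genes in the first and the last panel.

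Glucose was then set against standard medium. All 5 differences were below 0, as were 13.9% of those of all genes tested, and 0 of the 5 genes passed the limma test. Jon99Cii was at 2570.0 ± 475 RPKM on glucose and 4737 ± 1102 on standard medium (-0.87, interval -1.81 to 0.06, limma adjusted p = 0.130). Jon99Ciii was at 3226 ± 616 and 5919.8 ± 1386 (-0.87, interval -1.85 to 0.11, limma adjusted p = 0.146), and Jon99Fi at 857 ± 203 and 1450.5 ± 251 (-0.78, interval -1.64 to 0.09, limma adjusted p = 0.143). In these 3 genes all glucose libraries lay below all standard libraries, as they did in 2.64% of all genes tested. Jon99Ci was at 636 ± 175 RPKM on glucose and 959 ± 229 on standard medium (-0.60, limma adjusted p = 0.158), and Jon99Fii at 1912 ± 191 and 2548 ± 578 (-0.39, limma adjusted p = 0.344).

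By limma 0 of the 5 genes were called between glucose and standard medium and 0 had an unadjusted p under 0.05, against 0.896% of all genes called lower and 21.3% called higher. Their median difference was -0.78, beside 0.25 over all genes, and after median-ratio scaling it was -1.09, when 25 genes were higher and 51 lower. When the repeat number was fitted as a block, Jon99Ci, Jon99Fi and Jon99Cii (3 genes) were lower (adjusted p = 0.0142, 0.0361 and 0.0471), against 3.61% of all genes lower and 42.1% higher, and Jon99Ciii was at 0.0528. With the block and median-ratio scaling Jon99Ci alone passed (-0.92, adjusted p = 0.0166). Without agar replicate 3, which enters through the shared estimate of the spread, Jon99Cii, Jon99Ciii and Jon99Fi passed (adjusted p = 0.0304, 0.0336 and 0.0437). After quantile normalization the differences of Jon99Cii and Jon99Fii were -0.016 and 0.012. Over all alternatives the adjusted p ran from 0.0292 to 0.992 for Jon99Cii, 0.0307 to 0.554 for Jon99Ciii, 0.0361 to 0.418 for Jon99Fi, 0.0142 to 0.791 for Jon99Ci and 0.128 to 0.992 for Jon99Fii.

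The comparison of glucose with agar asks how guts on the sugar differ from guts on agar. The 3 glucose libraries lay below the 3 agar libraries for Jon99Ci, with means of 636 ± 175 RPKM on glucose and 1455 ± 440.3 on agar, and the difference did not pass (-1.19, interval -1.89 to -0.48, limma adjusted p = 0.179). With the repeat number as a block it passed as lower on glucose (adjusted p = 0.0147, and 0.0172 with median-ratio scaling also), where 1.74% of all genes were lower and 0.635% higher, and over all alternatives the adjusted p ran from 0.0147 to 0.523. The groups did not overlap in this direction in 10.5% of all genes tested. The differences of the other 4 genes were above 0, where 55.6% of all genes tested were below it. The level of Jon99Fi was 857 ± 203 RPKM on glucose and 503 ± 259 on agar (0.88, interval 0.02 to 1.75, limma adjusted p = 0.459). Jon99Cii was at 2570.0 ± 475 and 1877 ± 1046 (0.61, interval -0.32 to 1.55, limma adjusted p = 0.730), and Jon99Ciii at 3226 ± 616 and 2428 ± 1417 (0.59, interval -0.39 to 1.57, limma adjusted p = 0.756). Jon99Fii was at 1912 ± 191 and 1694 ± 729 (0.27, interval -0.45 to 0.99, limma adjusted p = 0.881).

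By limma 0 of the 5 genes were called between glucose and agar, with 2 at an unadjusted p under 0.05 (Jon99Ci and Jon99Fi), against 0.249% of all genes called lower and 0.0373% called higher. In the levels of these 5 genes, the libraries were least alike on agar. The highest agar library exceeded the lowest by 3.51 times for Jon99Cii, 3.77 for Jon99Ciii, 3.09 for Jon99Fi, 2.51 for Jon99Fii and 1.89 for Jon99Ci. The same ratio was 1.22 to 1.71 on glucose and 1.34 to 1.64 on standard medium. Without agar replicate 3 the differences of Jon99Cii and Jon99Ciii were 0.12 and 0.066, that of Jon99Fi was 0.44 and that of Jon99Fii was -0.087. Without agar replicate 1 the differences of Jon99Cii and Jon99Ciii were 1.02 each, and that of Jon99Fi was 1.26. The comparisons share libraries of each diet, so their values stand side by side and are not independent of each other.

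The other Jonah genes and the trypsins were described as lists beside the 5 genes. The list of other Jonah genes held 12, among them yip7, a serine protease gene of the same kind, and all 12 were tested. On agar versus standard medium 7 of 12 were lower and 0 higher, and all 12 had negative differences, with a median of -1.24 and a range from -1.97 to -0.07. Of all genes tested 2.23% were lower, 37.7% higher and 15.2% below 0 there, with a median of 0.28. Jon25Bii was at 391 ± 143 RPKM on agar and 1478 ± 269 on standard medium (-1.97, limma adjusted p = 0.00626), and Jon25Bi at 736 ± 181 and 2445 ± 254 (-1.76, limma adjusted p = 0.00707). After quantile normalization 4 of 12 were lower, and without standard replicates 2 and 3 it was 0 by limma, with 7 at an unadjusted p under 0.05. On glucose versus standard medium 3 of 12 were lower and 0 higher, where 0.896% of all genes tested were lower and 21.3% higher. The count was 9 in the blocked fit (3.61% of all genes lower), 8 when agar replicate 3 was left out, and 0 without standard replicates 2 and 3 (3 at an unadjusted p under 0.05). The median difference of the 12 there was -0.88, beside 0.25 over all genes. Jon25Bii was at 218 ± 71.7 RPKM on glucose and 1478 ± 269 on standard medium (-2.79, limma adjusted p = 0.00965), and Jon25Bi at 406 ± 163 and 2445 ± 254 (-2.67, limma adjusted p = 0.00965). On glucose versus agar 0 of 12 were called by limma, with 2 at an unadjusted p under 0.05, and the median was 0.24, beside -0.02 over all genes. Jon25Bi and Jon25Bii were there at -0.92 and -0.82 (limma adjusted p = 0.332 and 0.442).

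Of 12 trypsin genes, whose products cut after basic residues, 11 were tested. On agar versus standard medium 2 were lower and 0 higher, with a median of -0.39, where 2.23% of all genes tested were lower and 37.7% higher, with a median of 0.28. These were thetaTry, at 522 ± 29.3 RPKM on agar and 694 ± 19.0 on standard medium (-0.41, limma adjusted p = 0.0279), and deltaTry, at 193 ± 98.5 and 436 ± 83.5 (-1.31, limma adjusted p = 0.0286). The count was 5 with the block (4.78% of all genes lower), 4 with scaling by median ratios and 0 with quantile normalization. Without agar replicate 2 or any standard library the count was 0, and without glucose replicate 1 or 2 it was 1. On glucose versus standard medium 0 of 11 were called by limma, with 0 at an unadjusted p under 0.05 (median -0.15), and on glucose versus agar 0 of 11 (median 0.23), with 1 at that level. The trypsins with the smallest p were etaTry and deltaTry on glucose versus standard medium (0.20 and -0.59, limma adjusted p = 0.203 and 0.255). On glucose versus agar they were thetaTry and deltaTry (0.33 and 0.72, limma adjusted p = 0.358 and 0.614). The difference of etaTry was -0.12 after median-ratio scaling. Beside these lists, the 5 genes of 99C and 99F had medians of -1.46, -0.78 and 0.59 on agar versus standard, glucose versus standard and glucose versus agar, and whether the lists differ from each other was not tested.

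**Figure D5:**
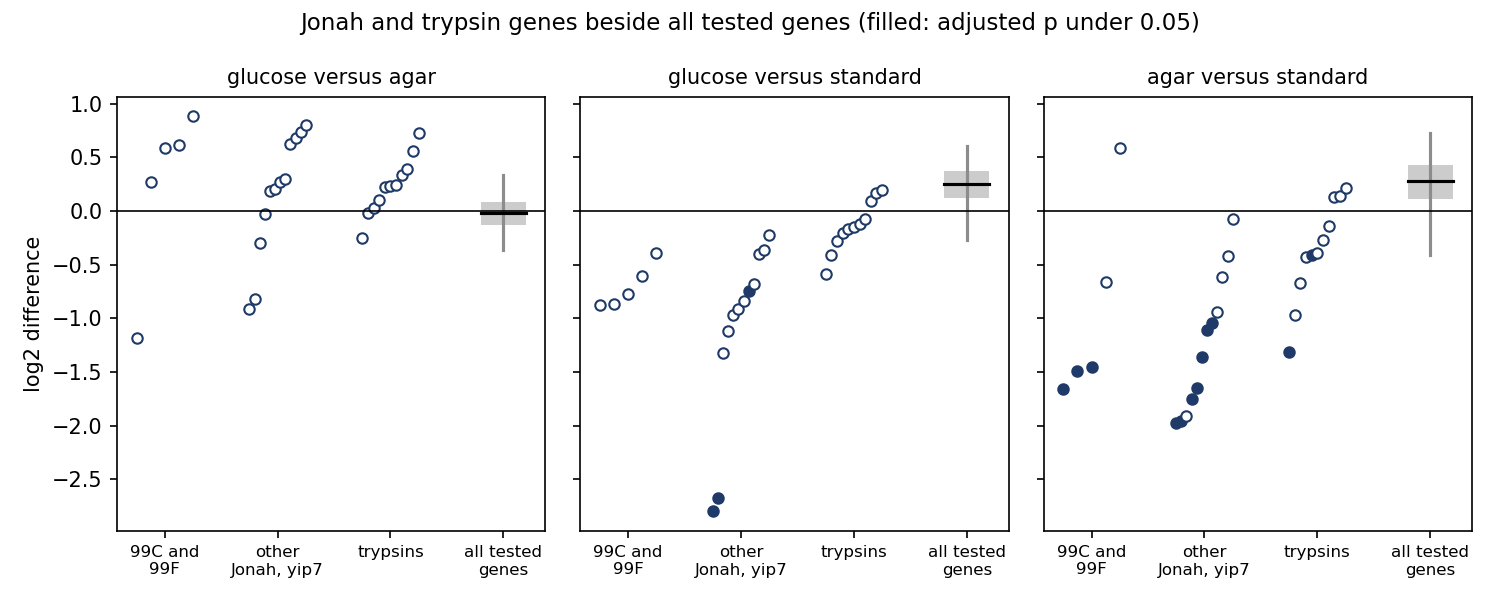
Log2 difference of each gene of 99C and 99F, each other Jonah gene with yip7, and each trypsin, beside all 8036 genes tested (line from the 5th to the 95th percentile, box over the interquartile range, bar at the median); filled points passed at an adjusted p under 0.05. On agar versus standard medium 3 of 5, 7 of 12 and 2 of 11 genes passed, all lower, where the median of all genes was 0.28.

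The genes whose pattern over the 9 libraries was most like the mean of the 5 were found by Pearson's r of log2(RPKM + 1), as a description. LysC and LysD, which encode digestive lysozymes of the gut, had r of 0.992 and 0.988, and 3 histone H1 rows had 0.986 to 0.989. How any reads that match both lysozyme genes were counted is not given in the sources used here. LysC was at 314, 452 and 254 RPKM in glucose replicates 1, 2 and 3, at 462, 251 and 84.1 in agar replicates 1, 2 and 3, and at 1209, 607 and 658 in standard replicates 1, 2 and 3. Its lowest level, as for 4 of the 5 Jonah genes, was in agar replicate 3. Taken singly, Jon99Cii and Jon99Ciii were each most like the other (0.999) and, outside the 5 genes, most like LysC (0.993 and 0.994). Jon99Fi was most like yip7 (0.996). Jon99Ci was most like CG9468, now named LManVI after lysosomal alpha-mannosidase (0.935), which averaged 415 ± 102 RPKM on glucose, 1021 ± 332 on agar and 603 ± 187 on standard medium (SD, n = 3). Jon99Fii was most like the row named Gtp-bp (0.988), which ran from 9.11 to 20.2 RPKM.

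The genes of the signalling route named in the series title were present at far lower levels. The gene of the activin-like ligand Dawdle, daw, had 16.3 to 28.5 RPKM on glucose, 11.8 to 12.9 on agar and 11.5 to 15.98 on standard medium, and its type I receptor gene babo had 5.61 to 6.51, 5.34 to 9.37 and 3.96 to 5.54 on the same diets.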

How the data were processed

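Per the labels' protocols, total RNA was taken from dissected guts with Trizol and made into stranded mRNA libraries. Per the submitters' processing notes, CASAVA 1.82, Bowtie2 2.1 and limma were used; no source used here gives the genome build, the annotation or how reads were counted. The authors deposited 1 log2 RPKM value per gene and library. The values had the form of log2((reads + 0.5) / (library total + 1)) per kilobase, scaled to RPKM, which gave whole reads within a relative tolerance of 3e-12 in all 9 libraries for 2031 of the 3317 genes with 1 transcript in BDGP6.54 (61.2%).

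Deposited values were turned into RPKM by raising 2 to them. A gene was tested if 3 or more libraries had 1 RPKM or more of it (8036 genes), on log2(RPKM + 1) in 1 limma fit with 1 mean for each diet, a variance trend and moderated variances (residual df 6, prior df 2.75). P-values were adjusted by Benjamini-Hochberg over the 8036 genes and called under 0.05. Biological repeats are the replicates, 3 per diet. The labels give repeat numbers shared between diets, and the number was also fitted as a block. Residuals of same-numbered libraries correlated at 0.17 to 0.59, and others at -0.53 to 0.29. These ranges overlap through standard replicate 2, at 0.17 with agar replicate 2 and 0.29 with agar replicate 3. All other same-numbered pairs were at 0.35 or above. The residuals of a diet sum to 0 for each gene, which ties the correlations to each other. The procedure was tested on simulated data. The 5 genes and the lists were chosen with earlier results of these data known. Genes named are the 5, the 2 smallest p per list and comparison, the genes most like them by r, daw and babo. Of 33 listed markers 30 matched a row. Alternatives were other pseudocounts (0.1, 5 or the deposited values), other filters (none or 5 RPKM), median-ratio scaling, quantile normalization, the block with and without scaling, the 6 compared libraries alone, no trend and each library left out; leaving out standard replicates 2 and 3 together was added after seeing the data. Fits were run with limma 3.58.1 in R 4.3.3, tables were read with pandas 2.3.3 and NumPy 2.4.6 in Python 3.11.15, and Matplotlib 3.10.9 drew the figures.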

Additional observations from a re-analysis of the deposited data

How the results depend on the processing

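Of the 15 differences of the 5 Jonah genes, 13 kept their sign under every alternative run. The exceptions were both of Jon99Fii, at -0.087 on glucose versus agar without agar replicate 3 (up to 0.58 without agar replicate 1) and at 0.012 on glucose versus standard medium after quantile normalization; the trypsin etaTry was at -0.12 on glucose versus standard medium after median-ratio scaling, with or without the block. The cause was not tested. Several alternatives cannot change a difference: the filters, the block by itself, the variance trend and the fit of 6 libraries. Leaving out a library of the third diet cannot either. The 15 differences are also not independent, because the comparisons share libraries and Jon99Cii and Jon99Ciii may share reads. On agar versus standard medium 3 of the 5 were called, 5 with the replicate block, 1 after quantile normalization, 1 in a fit of the 6 compared libraries, 0 without standard replicates 2 and 3 (3 at an unadjusted p under 0.05), and 1 to 4 without each library in turn. On glucose versus standard medium 0 were called by limma (0 at an unadjusted p under 0.05), 3 with the replicate block, 1 with the block and median-ratio scaling, 3 in the fit of 6 libraries, and 0 to 3 without each library. On glucose versus agar 0 were called by limma (2 at an unadjusted p under 0.05), and 1 with the replicate block, with or without median-ratio scaling.

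Over all genes tested, agar versus standard medium gave 3031 higher and 179 lower (3210), with 145 and 230 after median-ratio scaling (375) and 213 and 125 after quantile normalization (338). The count was 2063 with the 5 RPKM filter, 1156 with the replicate block and median-ratio scaling, 1990 in the fit of 6 libraries, 0 by limma without standard replicates 2 and 3 (2365 at an unadjusted p under 0.05), and 1667 to 3243 without each library. Glucose versus standard medium gave 1715 higher and 72 lower (1787), with 25 and 51 after median-ratio scaling (76) and 28 and 28 after quantile normalization (56). The count was 1113 with the 5 RPKM filter, 3676 with the replicate block, 437 with the block and median-ratio scaling, 0 by limma without standard replicates 2 and 3 (1483 at an unadjusted p under 0.05), and 9 to 2729 without each library. Glucose versus agar gave 3 higher and 20 lower (23), with 3 and 9 after median-ratio scaling (12) and 2 and 9 after quantile normalization (11). The count was 10 with no filter, 49 with the 5 RPKM filter, 191 with the replicate block, 191 with the block and median-ratio scaling, 36 with no variance trend, 2 in the fit of 6 libraries, 2 without standard replicates 2 and 3, and 1 to 115 without each library. The 5 genes have at least 10048 reads in each library; what limits the precision of their differences was not tested.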

Other observations

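Within each diet, the library of repeat 1 had the lowest level of Jon99Ci, and on agar and standard medium it had the highest levels of Jon99Cii, Jon99Ciii, Jon99Fi and Jon99Fii. On glucose repeat 1 was highest for Jon99Fi and Jon99Fii, and repeat 2 for Jon99Cii and Jon99Ciii. The log2 ratio of Jon99Ci to Jon99Ciii was -2.92, -2.37 and -1.80 in glucose repeats 1, 2 and 3, -1.97, -0.66 and 0.86 in agar repeats 1, 2 and 3, and -3.40, -2.39 and -2.11 in standard repeats 1, 2 and 3. What the repeat number stands for is not given in the sources used here, and its part in these ratios was not tested.

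The 3 histone H1 rows that resembled the mean of the 5 Jonah genes, His1:CG33801, His1:CG33804 and His1:CG33807, lay at 802 to 5120 RPKM, and His1:CG33801 and His1:CG33807 had equal values in all 9 libraries. Histone genes are repeated and near-identical, and the levels of these rows are uncertain.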
